A study of Mus musculus with 2 samples.

Results

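The Skint genes (selection and upkeep of intraepithelial T cells) were examined in dorsal skin of newborn mice that lacked Sdr9c7, which encodes a dehydrogenase made by differentiating keratinocytes. The family was taken as the 10 genes Skint1 to Skint10, found by gene name among the non-control probes of the array. They were represented by 13 probes of 39417 on the array, and all 10 were among the 22719 gene names measured on both arrays. The compared groups were Sdr9c7-/- (knockout, KO) skin and wild type (WT) skin, both on the C57BL/6J background and both at postnatal day 0. Each genotype had 1 array, hybridised with Cy3-labelled RNA pooled from 5 animals, so the differences are without a replicate check and carry no p-value. The design text calls the tissue epidermis and the labels call it skin. Markers of skeletal muscle and fat were well above background on both arrays.

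Skint proteins resemble butyrophilins: an immunoglobulin-like outer part is followed by membrane-spanning segments. In the mouse they are made mainly by keratinocytes and by epithelial cells of the thymus. Skint1 is the founding member, and is required in the thymus for the selection of the gamma-delta T cells that later settle in the epidermis as dendritic epidermal T cells. The functions of most other members are less well known. The genes lie side by side in the mouse genome, and in the RefSeq gene table (GRCm38.p6) the 10 members and Skint11 formed an unbroken row of 11 protein-coding genes on chromosome 4.

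The promoters of the family are shown because the genes arose by duplication and the array measured them one by one. RefSeq promoter windows (GRCm38.p6) matched all 10 members by symbol, with 2 starts for Skint4, and the 250 bases before each start were used. The windows of Skint6 and Skint5 matched at 222 of 250 bases after a global alignment, the closest of all pairs. A word of 14 bases, agtacttgagtaat, was found in the windows of 5 of the 10 members: Skint1, Skint3, Skint4, Skint5 and Skint6. Searched on both strands, it occurred in 5 of 32544 promoter windows of the genome (0.0154%) and in 0 genes outside the family. The word was picked after the sequences were seen, by lengthening a shorter shared word for as long as the same members held it. Its rarity elsewhere follows in part from that choice and is no support for a function. The word has no known name here. The windows of Skint6 (chr4:113286974-113287223, minus strand), Skint5 (chr4:113999504-113999753, minus strand) and Skint1 (chr4:112006019-112006268, plus strand) follow, with the word in capitals.
Skint6: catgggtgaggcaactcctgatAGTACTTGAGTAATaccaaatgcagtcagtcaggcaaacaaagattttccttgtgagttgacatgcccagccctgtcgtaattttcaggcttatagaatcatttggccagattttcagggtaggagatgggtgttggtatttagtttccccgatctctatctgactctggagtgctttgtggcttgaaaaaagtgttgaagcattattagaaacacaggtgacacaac
Skint5: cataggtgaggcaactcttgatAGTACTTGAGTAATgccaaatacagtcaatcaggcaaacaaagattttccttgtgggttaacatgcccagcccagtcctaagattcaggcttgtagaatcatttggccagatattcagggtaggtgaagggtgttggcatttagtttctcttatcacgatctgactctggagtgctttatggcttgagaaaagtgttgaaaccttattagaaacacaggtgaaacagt
Skint1: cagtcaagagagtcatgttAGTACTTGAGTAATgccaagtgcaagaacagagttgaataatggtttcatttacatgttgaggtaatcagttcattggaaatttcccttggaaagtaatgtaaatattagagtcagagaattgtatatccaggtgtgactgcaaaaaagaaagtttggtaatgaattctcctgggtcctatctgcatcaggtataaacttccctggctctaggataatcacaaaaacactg

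The word began 228 bases before the start in both Skint6 and Skint5, 231 bases before it in Skint1, 103 in Skint3 and 47 at the second start of Skint4. The letters TATAAA, searched on both strands, stood in windows of 6 of the 10 members and in 12.3% of all promoter windows. The AP-1 letters TGANTCA, also on both strands, stood in 0 of the 11 member windows and in 6.73% of all windows. Member windows are partly alike and were not matched to other windows for base composition, so neither motif was tested for enrichment. On the arrays the genes with the word lay on both sides of 0. Skint4, Skint5 and Skint3 had log2 differences (KO minus WT) of 0.34, 0.21 and 0.16, while Skint1 and Skint6 had -0.12 and -0.19.

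Probe sequences decide which transcript a value stands for in a duplicated family, so those that matter are shown next (all from the scanner files, mm9, chromosome 4). The probes of Skint8 (chr4:111612185-111612244) and of Skint7 transcript variant 1 (chr4:111657418-111657477) were the most alike pair among the 13 probes, with 48 of 60 bases identical at the same position, or 80.0%. Capitals mark the 12 positions where they differ.
Skint8: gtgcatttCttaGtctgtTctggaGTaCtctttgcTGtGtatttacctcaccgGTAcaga
Skint7 variant 1: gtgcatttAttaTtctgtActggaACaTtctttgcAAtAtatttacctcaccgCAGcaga

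The next most alike pair of member probes matched at 24 of 48 overlapping bases. The other Skint7 probe, assigned to transcript variant 2 (chr4:111655244-111655303), begins with a run of 27 alternating T and G bases, in capitals in its first 30 bases.
Skint7 variant 2, first 30 bases: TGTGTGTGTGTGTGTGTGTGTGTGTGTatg

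Signals below are processed intensities divided by the 75th percentile of their array, so that 1 equals that percentile, and differences are log2 values, KO minus WT. A probe was counted as measured where the scanner software called it well above background on both arrays, and a gene's difference is the mean over its measured probes. Levels are compared between the arrays and not between genes, since each probe has its own response. The scanner software's error model gave log2 errors of 0.20 to 0.21 for the difference of each of the 12 measured Skint probes. The model's error was nearly the same share of the signal at each measured probe, for example 65.1 of 651 and 8156 of 81559 for the 2 Skint7 probes on the KO array. It therefore hardly tells one probe from another, and 2 errors act as a nearly fixed cutoff. The model stands for spot and scanner error, not differences between animals, and precision is limited by having 1 array per genotype. As further yardsticks, the SD of the difference between spots of the same probe had a median of 0.06 over 320 probes, and between probes for one gene the pooled SD was 0.25 over 5176 genes.

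The label was checked first on the deleted gene. Sdr9c7 had a relative signal of 0.0479 on the KO array, against 0.324 on the WT array, which is 6.78-fold lower in KO skin. The sources used here do not say which part was deleted, so whether its single probe lies there is unknown. KO and WT arrays had 76.8% and 74.9% of probes well above background, with 0 saturated spots on either array.

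The Skint family was close to level between the genotypes. Of the 10 genes, 0 were at least 1.5-fold higher and 0 at least 1.5-fold lower in KO skin. Over all measured genes 2.36% were at least 1.5-fold higher, 6.05% at least 1.5-fold lower, and 1.88% at least 2-fold apart in either direction. The family median was 0.16, beside -0.04 over all measured genes. There were 6 members above 0 and 4 below, where 43.1% of all measured genes were above 0. The members ran from -0.21 for Skint2 to 0.41 for Skint7, which is inside the range from the 5th to the 95th percentile of all measured genes, -0.64 to 0.43. The Skint7 value is a mean that includes its repeat probe. Its variant 1 probe alone gave 0.58 (1.49-fold), above that range and just short of 1.5-fold. The difference of 8 members was smaller than the pooled SD between probes (0.25), and Skint7 and Skint4 lay beyond it. The 25th and 75th percentiles of all measured genes, -0.21 and 0.12, also lay within that SD, so differences this small were common. Of the 12 measured probes, 8 were above 0 and 4 below, 5 lay further from 0 than their error, and 2 lay further than 2 errors. The share of all measured probes beyond their errors was not computed, so these counts do not set the family apart. The family median was 0.03 with normexp background correction of the raw signals. It was 0.06 over 8 members once a damaged block and 2 bands of rows in which dim spots scattered were left out, areas that hold the probes of Skint8 and Skint5.

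**Figure D1:**
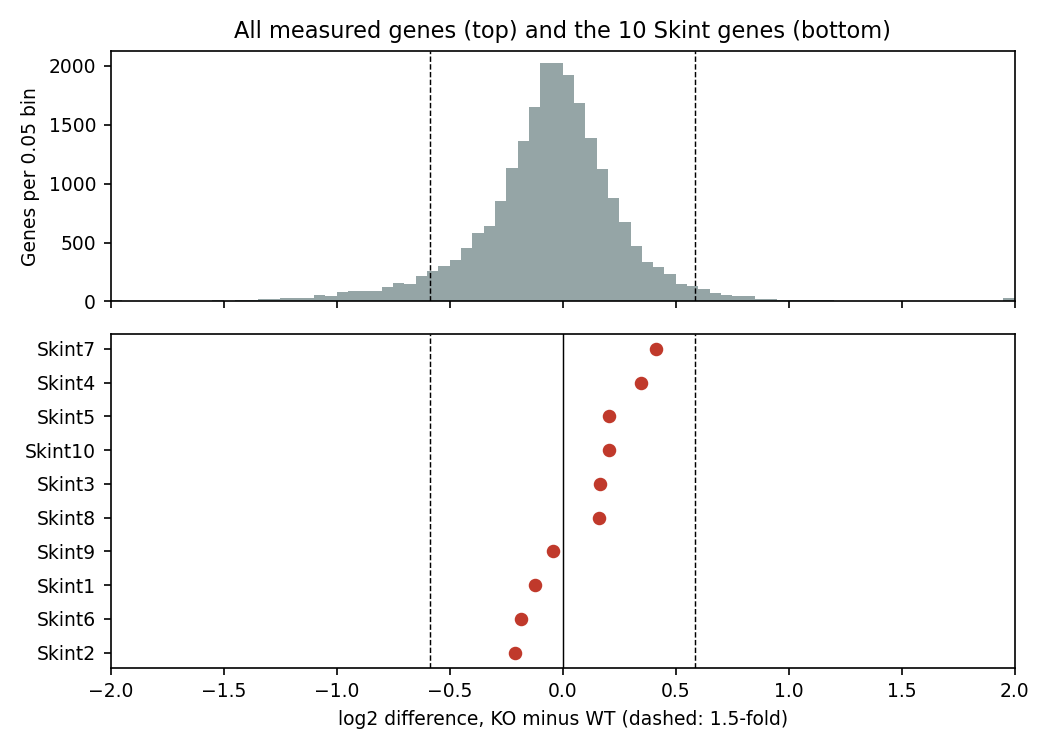
The upper panel is a histogram of the log2 difference (KO minus WT) of all 22719 measured genes in bins of 0.05, with values beyond 2 drawn in the end bins, and the lower panel gives each Skint gene as a point on the same axis. Dashed lines mark 1.5-fold, and all 10 Skint genes lie between them, from -0.21 to 0.41.

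The arrays hold skin and not the thymus, where Skint1 is known to act in T cell selection. In skin Skint1 showed little difference. Its probe (chr4:111702084-111702143, mm9) read 122 ± 12.3 on the KO array and 120 ± 12.2 on the WT array, as processed intensity with the software's error. After scaling these are relative signals of 0.0632 in KO skin and 0.0688 in WT skin, a log2 difference of -0.12, with an error of 0.21. The sign came from the scaling, since the intensities were all but equal and the 75th percentile was 1923 on the KO array and 1747 on the WT array. Of all measured genes, 35.8% had a difference as low or lower.

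Skint7 was the highest member, and its 2 probes gave unlike values. The variant 1 probe, without a repeat, had relative signals of 0.338 in KO skin and 0.227 in WT skin, a log2 difference of 0.58 (1.49-fold), more than 2 errors from 0. Of all 29096 measured probes, 2.61% had a difference as high or higher. Its pixels varied more on the KO array, with a pixel SD of 0.239 of the mean against 0.165 on the WT array, and that KO value was the highest of the 13 Skint probes. The repeat probe read 42.4 in KO skin and 35.6 in WT skin, a difference of 0.25 (1.19-fold). Only 1.63% of measured probes were brighter than it on the KO array and 2.28% on the WT array.

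Other probes with such a repeat behaved alike, whatever gene they were made for. Apart from the one for Skint7, 51 measured probes of 51 other gene names held a run of at least 20 alternating T and G bases. All 51 were above 0, from 0.01 to 0.39, with a median of 0.22, and 42 of them lay within 0.1 of the Skint7 repeat probe. Their median relative signal was 18.8 on the KO array and 15.8 on the WT array. How much of the Skint7 repeat probe's signal comes from Skint7 transcripts was not tested. Without the repeat probes the Skint7 value was 0.58 in place of 0.41, from the variant 1 probe alone.

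**Figure D2:**
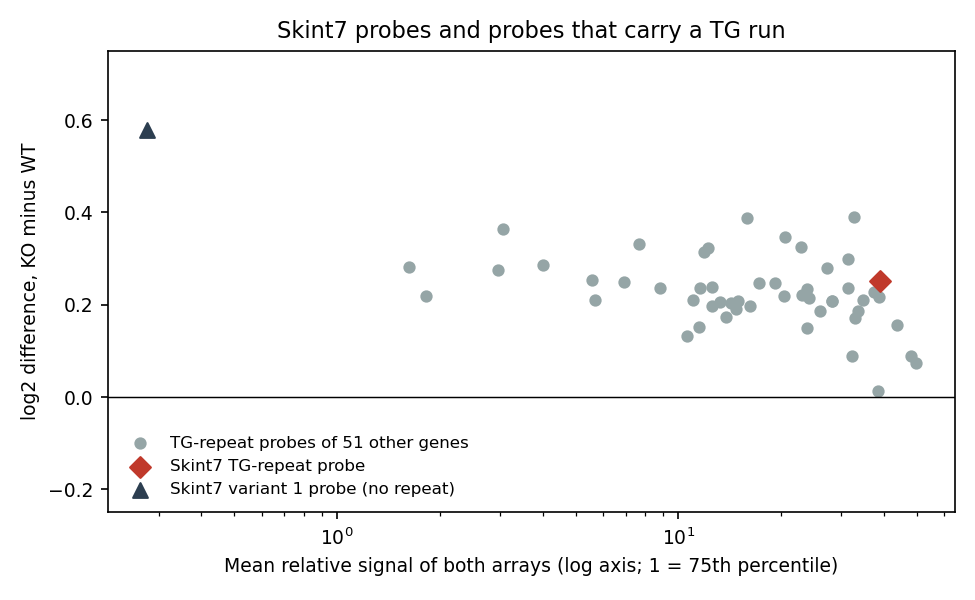
Each point is a probe, with its mean relative signal over both arrays (log axis, 1 equals the 75th percentile) against its log2 difference, KO minus WT. The Skint7 repeat probe (diamond, 0.25) lies among the repeat probes of 51 other genes (grey, 0.01 to 0.39), while the Skint7 variant 1 probe (triangle) lies above them at 0.58.

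Skint8, whose probe shares 80.0% of its bases with the Skint7 variant 1 probe, had relative signals of 0.211 in KO skin and 0.189 in WT skin, a log2 difference of 0.16. The related Skint7 probe gave 0.58, and each of these differences has an error of 0.20. The Skint8 probe sat within a scattering band. The 207 measured spots around it had a median difference of -0.01, which bears on a local shift and not on scatter.

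Skint4 was next highest, and its 2 probes, both within the same stretch of chromosome 4 (chr4:111839835-111839894 and chr4:111840593-111840652, mm9), pointed the same way. The first read 0.230 in KO skin and 0.171 in WT skin, a difference of 0.42, which is more than 2 errors from 0. The second, brighter, read 1.27 in KO skin and 1.06 in WT skin, a difference of 0.27. The gene's mean was 0.34 (1.27-fold), and 7.43% of all measured genes were as high or higher.

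Skint3 was measured by its variant 2 probe (chr4:111973014-111973073), with 2.31 in KO skin and 2.06 in WT skin, a log2 difference of 0.16. The variant 1 probe (chr4:111970791-111970850) was well above background on the KO array only. It read 0.0139 in KO skin, against 0.00840 in WT skin. That is 1.65-fold higher in KO skin, a log2 difference of 0.72 with an error of 0.38. The WT signal was not well above background, and this fold is not a lower limit.

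Skint10 and Skint5 were dim and slightly above 0. Skint10 had relative signals of 0.0558 in KO skin and 0.0485 in WT skin, a difference of 0.20. Skint5 had 0.0505 in KO skin and 0.0438 in WT skin, a difference of 0.21, from a probe in a band of scattering rows that the scanner files do not place on the genome. Both differences were slightly smaller than their errors of 0.21, and with normexp correction they were 0.01 for Skint10 and 0.05 for Skint5.

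Below 0 lay Skint2, Skint6 and Skint9 besides Skint1. Skint2, also listed by RefSeq as B7S3, had relative signals of 0.202 in KO skin and 0.234 in WT skin, a difference of -0.21. Skint6 had 0.152 in KO skin and 0.173 in WT skin, a difference of -0.19. It lay on the other side of 0 from Skint5 (0.21), the member with which it shares most of its promoter window, though each of these differences is about as large as its error. Skint9 was the most nearly level, with 1.27 in KO skin and 1.31 in WT skin, a difference of -0.04. Its sign came from the scaling, as for Skint1, since the processed intensity was 2438 on the KO array and 2285 on the WT array.

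**Figure D3:**
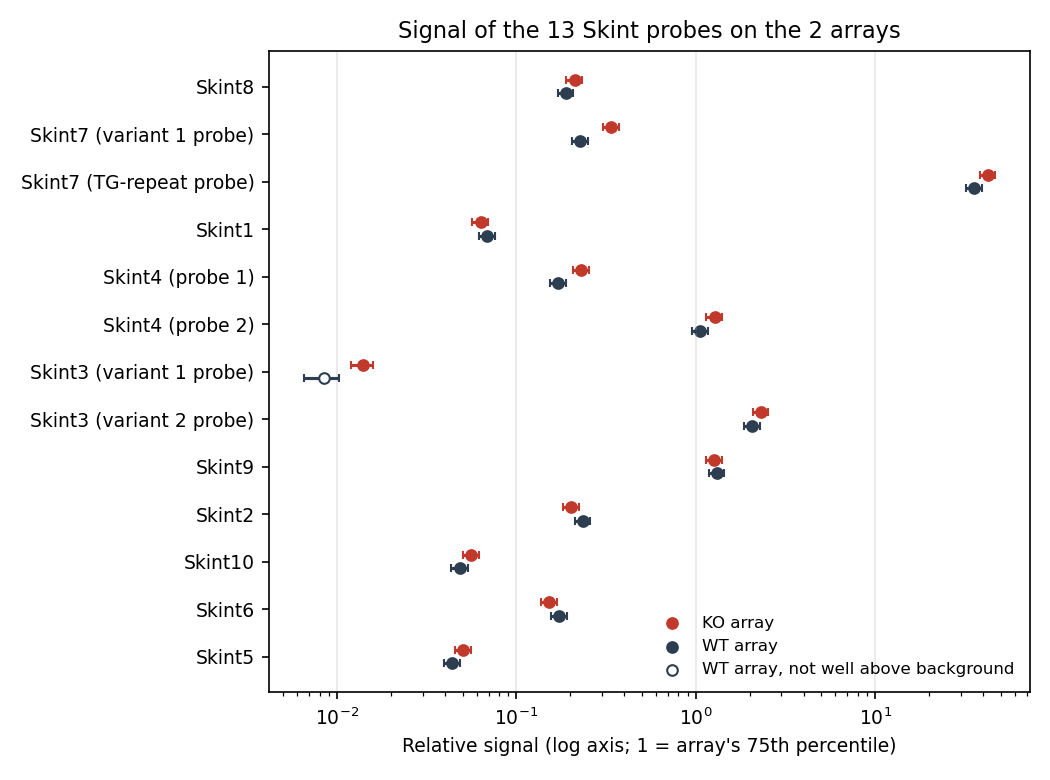
Relative signal (log axis, 1 equals the array's 75th percentile) of the 13 Skint probes in the order of the genes along the chromosome, KO above WT within each row, with bars for the software's error of each signal. The bars of KO and WT are clear of each other for the Skint7 variant 1 probe, the first Skint4 probe and the Skint3 variant 1 probe. The open symbol marks the Skint3 variant 1 probe on the WT array, which was not well above background there.

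Order along the chromosome and the position of spots on the slide were also set against the differences. From the Slc5a9 side, the members ran 0.16 (Skint8), 0.41 (Skint7), -0.12 (Skint1), 0.34 (Skint4), 0.16 (Skint3), -0.04 (Skint9), -0.21 (Skint2), 0.20 (Skint10), -0.19 (Skint6) and 0.21 (Skint5), so neighbouring members often differed in sign. Flanking genes were within 1.5-fold too. On one side Bend5 was at 0.03, Spata6 at -0.12 and the sodium-glucose transporter gene Slc5a9 at 0.33, and on the other Trabd2b was at -0.23 and Foxd2 at -0.10. Foxe3 was not well above background on both arrays. The measured spots within 8 rows and columns of each Skint spot had medians between -0.10 and 0.03, from 157 to 217 spots each.

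Skint11, which lies at the end of the row and is not among the 10 members, was well above background on the KO array only. Its probe read 0.0127 in KO skin, against 0.00231 in WT skin. As processed intensity with the software's error, these were 24.4 ± 3.02 and 4.04 ± 2.08. The KO signal was 2.25-fold the lowest signal called well above background on the WT array (0.00563). That is not a lower limit for the fold, since the Skint3 variant 1 probe read 0.00840 there without being well above background.

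Markers of the epidermal T cells that Skint1 is known to select were mixed in sign. Of 26 listed markers of dendritic epidermal T cells, 19 were measured, 11 above 0 and 8 below, with a median of 0.11. At least 1.5-fold higher in KO skin was 1 of them, and 0 were at least 1.5-fold lower. The exception was Jaml, an adhesion receptor of epidermal gamma-delta T cells, at 0.210 in KO skin and 0.116 in WT skin (1.81-fold, log2 difference 0.85). Il2rb, a receptor chain for interleukins that maintain these cells, was at 0.51, while the activation marker Cd69 and the T cell protein Cd7 were at -0.46 and -0.32. The T cell receptor chains of these cells (Trdc, Trdv4, Trgc1 and Trgv5) had no probe under those names, so the cell type was not identified directly. Of the receptor-associated chains, Cd3e was at -0.21, from a probe in one of the slide areas named above, while Cd3g was at 0.24 and Cd3d at 0.18. Klrk1, the receptor NKG2D, and the integrin Itgae were not well above background on either array. The summed relative signal of the list was 17.5 in KO skin and 15.99 in WT skin, a sum in which each probe weighs by its own response. Most of this sum came from Thy1 (11.7 in KO skin and 10.2 in WT skin) and Fcer1g (3.64 and 3.68). Both are also made by other skin cells. In bulk RNA, fewer cells of a type and less RNA per cell cannot be told apart. The median was -0.01 with normexp correction.

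Markers of other immune cells lay on both sides of 0, with 0 measured genes of either list at least 1.5-fold apart. Of 9 listed alpha-beta T cell markers, 5 were measured, with a median of 0.00, from Cd4 at -0.46 and Cd8b1 at -0.22 to Cd28 at 0.05 and Cd6 at 0.06. Of 9 listed Langerhans cell markers, 8 were measured, with a median of -0.01, from Epcam at -0.26 and Csf1r at -0.05 to Itgax at 0.13 and H2-Aa at 0.31. Cd207, the defining Langerhans cell lectin, was not well above background on either array.

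Keratinocyte signals to epidermal T cells had a median close to 0. Of 15 listed genes, 12 were measured, with a median of 0.03, 1 at least 1.5-fold higher and 0 at least 1.5-fold lower in KO skin. The higher one was H60b, a ligand of NKG2D, at 0.0132 in KO skin and 0.00738 in WT skin (0.84), a dim signal from a probe in one of the slide areas named above. Its relative H60c, which is made by skin, was at 0.32. Cxadr, the keratinocyte ligand of Jaml, was at -0.07 and the cytokine gene Tslp at -0.39, the last from a dim probe (0.0265 in KO skin and 0.0348 in WT skin) in one of these areas. Among 7 measured effector genes of epidermal T cells, of 11 listed, the cytokine gene Tnf (1.18) and the growth factor gene Areg (0.62) were at least 1.5-fold higher, and Igf1 (-0.28) and Il22 (-0.24) were lowest. The Tnf probe was dim (0.0482 in KO skin and 0.0212 in WT skin) and lay in one of these areas, and other skin cells make Areg and Tnf too.

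The list of regulators linked to T cell selection had 12 of 13 genes measured and a median of -0.02. Which skin cells made these transcripts was not tested. Bcl11b, a transcription factor of both T cells and keratinocytes, was 1.78-fold higher in KO skin (0.83), and the immediate early gene Nr4a1 was at 0.56, from a probe in one of the slide areas. The lowest was Egr2, another immediate early gene, at -0.27. Thymic epithelial markers, of which 5 of 6 were measured, had a median of 0.14, with Prss16 at 0.48 and Tbata at 0.17. Aire (-0.60) was at least 1.5-fold lower, at 0.00594 in KO skin and 0.00898 in WT skin, and Ccl25 was at -0.11. The Aire signals were dim, since the lowest signals called well above background were 0.00427 on the KO array and 0.00563 on the WT array.

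Relatives of the Skint proteins in the butyrophilin and B7 families were mixed. Of 20 listed genes, 11 were measured, 4 above 0 and 7 below, with a median of -0.05. Cd274, the ligand PD-L1, was at 0.187 in KO skin and 0.123 in WT skin (1.53-fold), from a probe in one of the slide areas named above. Next was Btn1a1, a butyrophilin, at 0.33, from one of the repeat probes described above. Cd86, a costimulatory ligand, was at -0.40 and the inhibitory B7 relative Vsir at -0.30.

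Markers of the keratinocyte layers were within 1.5-fold as well. Basal markers had a median of 0.10 over 11 genes (9 above 0), with Dst (0.47) and Krt15 (0.34) highest and Trp63 (-0.09) and Itgb4 (-0.02) lowest. Suprabasal markers had a median of 0.03 over 12 genes (9 above 0), from Krt77 at -0.28 and Sbsn at -0.13 to Dsg1b at 0.28 and Ptgs1 at 0.29. Granular layer markers had a median of -0.17 over 11 of 12 genes (7 below 0), from Flg2 at -0.34 and Klk7 at -0.27 to Ivl at 0.26 and Tgm3 at 0.27. Of the measured markers of these layers, 0 were at least 1.5-fold apart.

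Markers of muscle and fat were lower in KO skin. All 8 skeletal muscle markers were below 0, 7 of them at least 1.5-fold lower, with a median of -0.97 and a summed relative signal of 77.6 in KO skin and 138 in WT skin, from Pvalb at -2.26 and Actn3 at -1.52 to Mylpf at -0.64 and Myh3 at -0.54. All 6 adipocyte markers were below 0 as well, 3 of them at least 1.5-fold lower, with a median of -0.71 and a summed signal of 49.3 in KO skin and 76.3 in WT skin, from Cfd at -1.76 and Retn at -1.17 to Lep at -0.45 and Fabp4 at -0.34. The part of these differences in the values of the Skint genes was not tested. Besides those pointed out above, the named list genes with a probe in one of the slide areas were Cd6, Csf1r, Itgax, Igf1, Btn1a1, Trp63, Dst, Ivl, Tgm3, Tbata, Myh3, Retn, Fabp4 and Lep.

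**Figure D4:**
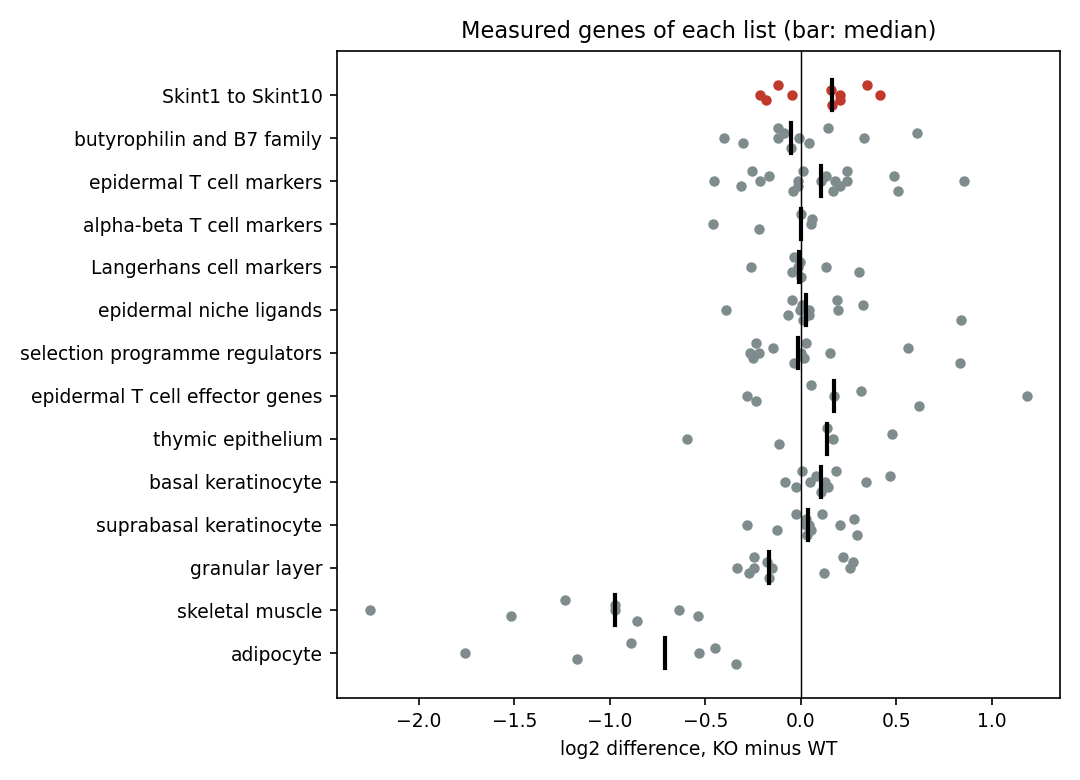
Log2 difference (KO minus WT) of each measured gene of the Skint family and the 13 other lists, as points, with a bar at the group median. The Skint genes (red) have a median of 0.16. Medians run from -0.17 to 0.10 for the keratinocyte layers and from -0.01 to 0.11 for the T cell and Langerhans cell markers. The epidermal T cell effector genes have a median of 0.17, whereas skeletal muscle and adipocyte markers have medians of -0.97 and -0.71.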

How the data were processed

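Both arrays were 1-colour Agilent arrays, each from 200 ng of total RNA per the labels' protocols. Per the file headers, the authors' scanner files hold the intensity of 44397 spots as written by Agilent Feature Extraction 11.5.1.1, with spatial and multiplicative detrending on. The deposited series matrix holds a ratio: in 100% of spots it was the processed intensity over 1 constant per array (2080 for KO, 1906 for WT) to within 0.1%, linear and not centred on genes, with a median of 0.0840 for KO and 0.0855 for WT. The sources used here do not give the step that made it.

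Control spots and 192 outlier spots were left out, log2 intensities were averaged per probe and the 75th percentile of 39417 probes was subtracted. Probe names were updated through RefSeq (GRCm38.p6), the accession serving for 28325 probes, and Python 3.11.15, limma 3.58.1 and Biopython 1.88 were used. With 1 array per genotype no test was run. The calculation was tested on simulated data. Alternatives were normexp (offset 50), median, quantile and loess scaling, no filter on dim probes, the brightest probe, the series matrix, leaving out areas of the slide (rows 496 to 515 with columns 8 to 15, and rows 92 to 153 and 429 to 475, known from earlier work on these arrays), and leaving out repeat probes, which was chosen after seeing the data.

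Members and lists were chosen with earlier results of these data known. Named were all members and probes, up to 4 genes of each list (the 2 highest and the 2 lowest), T cell receptor and Cd3 chains, and up to 3 flanking genes on each side. Cd3d, Thy1, Fcer1g, Klrk1, Itgae, Cd207 and Skint11 were named after their values were seen, and 1 gene that the rule names is not reported here.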

Additional observations from a re-analysis of the deposited data

How the results depend on the processing

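No Skint gene was 1.5-fold apart under any of the 9 alternatives, and each kept its sign in all settings that gave a value, except Skint9, which stood at 0.00 with median scaling against -0.04. Part of this was fixed in advance. The series matrix holds the same intensities over 1 constant per array, so it had to return the same values. Taking the brightest probe or leaving out repeat probes could change only members with more than 1 measured probe, Skint4 and Skint7. The Skint median lay between 0.0294 and 0.21: it was 0.0294 with normexp correction and 0.0629 with the damaged block and scattering bands left out. Skint3 stood at 0.44 with no filter on dim probes, which adds its dim probe. Skint7 stood at 0.58, just short of 1.5-fold, with the repeat probes left out. Leaving them out under another scaling was not tried. The scalings moved the median of all genes by at most 0.05. The epidermal T cell marker median was -0.00923 with normexp correction, 0.16 after quantile and 0.17 after loess normalization, and the suprabasal median was 0.11 after quantile normalization. Genes at least 1.5-fold apart numbered 1911, but 786 with normexp correction and 4522 with no filter on dim probes, which adds genes to those counted. Genes at least 2-fold apart numbered 428, but 136 with normexp correction, 1792 with no filter and 260 with the areas left out, which leaves 18776 genes. The cause of the other changes was not tested. No paired analysis was possible because each genotype has 1 array, and for the same reason no array could be left out. Skint10 and Skint5 were dim, and normexp correction gave 0.01 and 0.05 for them, against 0.20 and 0.21.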

Other observations

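The scanner files hold a further probe whose listed transcripts include one of Skint2 but which carries a transcript identifier in place of the gene name, so that it is not among the 13 probes. It had relative signals of 0.182 in KO skin and 0.193 in WT skin, a log2 difference of -0.09, on the same side of 0 as the named Skint2 probe at -0.21.

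The repeat that fills the start of one Skint7 probe was shared widely. Runs of 20 bases in that probe, read on either strand, also stood in probes of 82 other gene names, whereas the other 12 Skint probes shared no run of that length with a probe of another gene. The probe of Btn1a1, a butyrophilin and the second highest gene of its list at 0.33, was also one of the repeat probes.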
